A study of Homo sapiens with 23 samples.

Results

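Chromatin loops of human chromosome 12 were described in 2 HiChIP lists from T47D cells, an established breast cancer line that carries the progesterone receptor. The loops were chosen by chromosome, as every listed loop whose first end lies on chromosome 12, which gave 574 of 9591 loops (5.98%) in the T30 library and 623 of 7075 loops (8.81%) in the T0 library. In HiChIP, DNA ends that lie near each other in the nucleus are ligated and the ligated pieces are pulled down with an antibody, which the labels give as one to the progesterone receptor (PR). The T30 library carries R5020, a synthetic progestin, in its title as PR5020; neither its dose nor the unit of its time is stated for HiChIP, and the T0 library has the same cell line and antibody with no agent in its labels. Both share a protocol in which cells were kept in charcoal-treated serum and then without serum before hormone was added. Each condition is 1 library, so no difference below has a replicate check or a test, and intervals are exact binomial intervals at 95% that cover counting error only. Loops share ends, so these intervals may be too narrow.

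The progesterone receptor is a hormone-activated transcription factor that binds DNA mostly away from gene starts, and loops are 1 way by which such sites meet the genes they act on. A loop in these lists is a pair of bins of 5 kb with more contacts than the authors' model allows for their distance, at a q-value of at most 0.05. Contacts are counts of read pairs. Because listing needs both contact and enrichment by the antibody, the 2 cannot be told apart here. Chromosome 12 holds the type II keratin genes, the HOXC genes, the receptor genes VDR, RARG, NR4A1 and ERBB3, and MED13L, which encodes a subunit of the kinase module of Mediator, the complex that links transcription factors to RNA polymerase II.

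The lists differ in ways that touch each count below. No T30 loop spans under 20 kb, whereas the T0 list has 60 such loops on chromosome 12. On this chromosome the largest listed p-value was 2.81e-05 in T30 and 0.000232 in T0, at the same q-value limit. The depth of either library is unknown, and the part of depth, span limit and p-value limit in the differences was not tested.

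The starts of 4 protein-coding genes lie in bins that rank among the 10 with most partners in either library, a partner of a bin being a distinct bin joined to it. Their promoters, 250 bases before to 50 after the start, are shown because their starts lie in these bins. Each library was ranked apart and ties were taken by position. Other gene starts with as many partners or more thus fell outside, such as that of TMED2 with 6 in T0, against 5 at BTG1 in T30. They are RefSeq sequences of GRCh38.p14, written 5′ to 3′ on the gene's strand, with any match to the 4 motifs searched in capitals. NACA and BTG1 were such hubs in T30, MED13L too, and SRGAP1 in T0.
NACA (chr12:56725250-56725549, minus strand): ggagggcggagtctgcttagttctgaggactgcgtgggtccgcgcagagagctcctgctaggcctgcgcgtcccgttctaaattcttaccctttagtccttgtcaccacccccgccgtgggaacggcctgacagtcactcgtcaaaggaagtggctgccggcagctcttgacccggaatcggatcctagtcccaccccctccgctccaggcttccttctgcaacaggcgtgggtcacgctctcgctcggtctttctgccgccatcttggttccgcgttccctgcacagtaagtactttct
MED13L (chr12:116277644-116277943, minus strand): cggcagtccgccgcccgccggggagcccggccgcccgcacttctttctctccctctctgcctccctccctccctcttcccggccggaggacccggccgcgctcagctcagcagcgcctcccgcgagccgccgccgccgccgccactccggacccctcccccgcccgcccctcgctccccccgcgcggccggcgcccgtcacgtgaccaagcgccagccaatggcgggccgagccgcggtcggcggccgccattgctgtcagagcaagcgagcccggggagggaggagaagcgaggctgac
BTG1 (chr12:92145797-92146096, minus strand): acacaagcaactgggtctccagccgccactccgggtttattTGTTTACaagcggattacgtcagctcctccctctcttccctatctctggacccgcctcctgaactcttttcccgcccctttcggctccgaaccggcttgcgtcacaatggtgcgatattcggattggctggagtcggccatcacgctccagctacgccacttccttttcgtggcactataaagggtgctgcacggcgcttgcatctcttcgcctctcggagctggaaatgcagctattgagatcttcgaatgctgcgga
SRGAP1 (chr12:63844450-63844749, plus strand): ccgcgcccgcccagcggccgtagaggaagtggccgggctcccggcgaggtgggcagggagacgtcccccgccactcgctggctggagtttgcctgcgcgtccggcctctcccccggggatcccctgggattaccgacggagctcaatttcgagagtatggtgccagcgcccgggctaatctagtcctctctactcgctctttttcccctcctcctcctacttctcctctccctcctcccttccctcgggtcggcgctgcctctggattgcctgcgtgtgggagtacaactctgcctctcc
The motifs were the element of steroid receptors, GNACA and TGTNC with any 3 letters between, AGAACA, its half-site, TGTTTAC of forkhead factors and GATAAG of GATA factors, each on both strands; the half-site can lie within the element. The only match in these 4 windows was a forkhead motif in BTG1, 209 bases before the start. NACA, MED13L and SRGAP1 held none of these letters in their windows, and GC content was 60.7% for NACA, 78.3% for MED13L, 56% for BTG1 and 66.7% for SRGAP1.

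Over all 765 promoters of chromosome 12 with a sequence, the full element was found in 2 (0.261%), against 39 of 15812 promoters of the genome (0.247%). It was in 0 of the 104 promoters whose start lay in a T30 loop bin and in 0 of the 133 whose start lay in a T0 loop bin. The half-site was in 5.77% of the T30 set (interval 2.15 to 12.1%) and 8.27% of the T0 set (4.20 to 14.3%), against 15.5% (12.6 to 18.7%) of the 582 promoters with their start in no loop bin and 11.2% of all promoters. Promoters at loops were richer in GC, at a mean of 63.8% in the T30 set and 63.1% in the T0 set, against 59.9% for the chromosome; its part in the half-site share was not tested. The forkhead motif was in 3.85% and 1.5%, and the GATA motif in 4.81% and 4.51%, of the T30 and T0 sets, against 2.62% and 5.14% of all promoters.

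Of 66 microRNA hairpins of chromosome 12, 12 lay in a T30 loop bin and 7 in a T0 loop bin, 4 of them in both. The mature sequences of 4 well-known microRNAs are shown because their hairpins lie at loops, with the seed, bases 2 to 8, in capitals; they were chosen after the values were seen.
hsa-miR-615-3p: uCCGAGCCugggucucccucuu
hsa-miR-196a-5p: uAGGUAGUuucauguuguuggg
hsa-miR-26a-5p: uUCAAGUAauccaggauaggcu
hsa-let-7i-5p: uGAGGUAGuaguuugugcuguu
The hairpin of miR-615 lies in HOXC5 and had 2 loops with 25 contacts in T30 and 2 loops with 50 contacts in T0. The hairpin of miR-196a between HOXC genes had 1 loop in T30 and 0 in T0. MIR26A2, inside CTDSP2, and MIRLET7I, of the let-7 family that restrains growth genes, each had 0 loops in T30 and 1 in T0. No 2 of these 4 share a seed.

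The largest concentration of loops on the chromosome lay just above MED13L in T30. The bin at chr12:116390001-116395000 (hg38) joined 17 partners with 359 contacts in T30, against 5 partners with 77 contacts in T0. It overlaps no protein-coding gene and lies 112308 bp above the start of MED13L, which is transcribed away from it. Its T30 partners lay 30 to 315 kb away, 7 on the MED13L side and 10 on the other side, and 3 of them lay in MED13L; in T0 1 of 5 partners did. With bins within 10 kb of it pooled, the hub had 18 loops with 370 contacts in T30 and 7 with 121 in T0. No other T30 bin of the chromosome had more than 10 partners, and no T0 bin had more than 7.

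Contacts at this hub were high beside the rest of the T30 list. Its loop to the bin at 116490001 had 44 contacts in T30, the highest of the chromosome, and a matched loop 5 kb away had 20 in T0. Its loop to the bin at 116275001, which holds the MED13L start and thus the promoter shown above, had 41 contacts in T30, against 16 in T0 for a loop to the neighbouring bin. Its loop to the bin at 116660001, where the noncoding gene LINC03088 lies, had 31 contacts in T30 and 11 in T0 between identical bins. These 3 loops had more contacts in T30 than in T0, while most matched loops of the chromosome had fewer. Of the hub's 17 T30 loops, 8 had a match in T0, and all 5 of its T0 loops had one in T30.

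The bins joined through these loops formed 1 connected network of 35 bins and 44 loops with 710 contacts in T30, from 115995001 to 116710000, a width of 715 kb. It had more bins and more loops than any other network of the chromosome in either list. In the same stretch all listed loops numbered 50 in T30 and 24 in T0, with 809 and 349 contacts and median spans of 108 kb and 252 kb. The hub held 34.0% of these loops in T30 and 20.8% in T0. The network held 4 further T30 bins of 5 or more partners. The bin at 116660001 had 9 partners in T30 and 3 in T0, or 10 and 4 with bins within 10 kb pooled. The MED13L start bin had 8 and 2, but 12 and 7 when pooled. The adjoining bins at 116490001 and 116495001 had 5 partners each in T30, against 0 and 3 in T0. The bin with most partners of T0 in this stretch was another, at 116700001, with 1 partner in T30 and 7 in T0, or 2 and 12 when pooled. MED13L itself had 13 loops in each library, with 178 contacts in T30 and 150 in T0, so that the gene's loop count was equal while the loops' median span was 155 kb in T30 and 400 kb in T0.

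**Figure D1:**
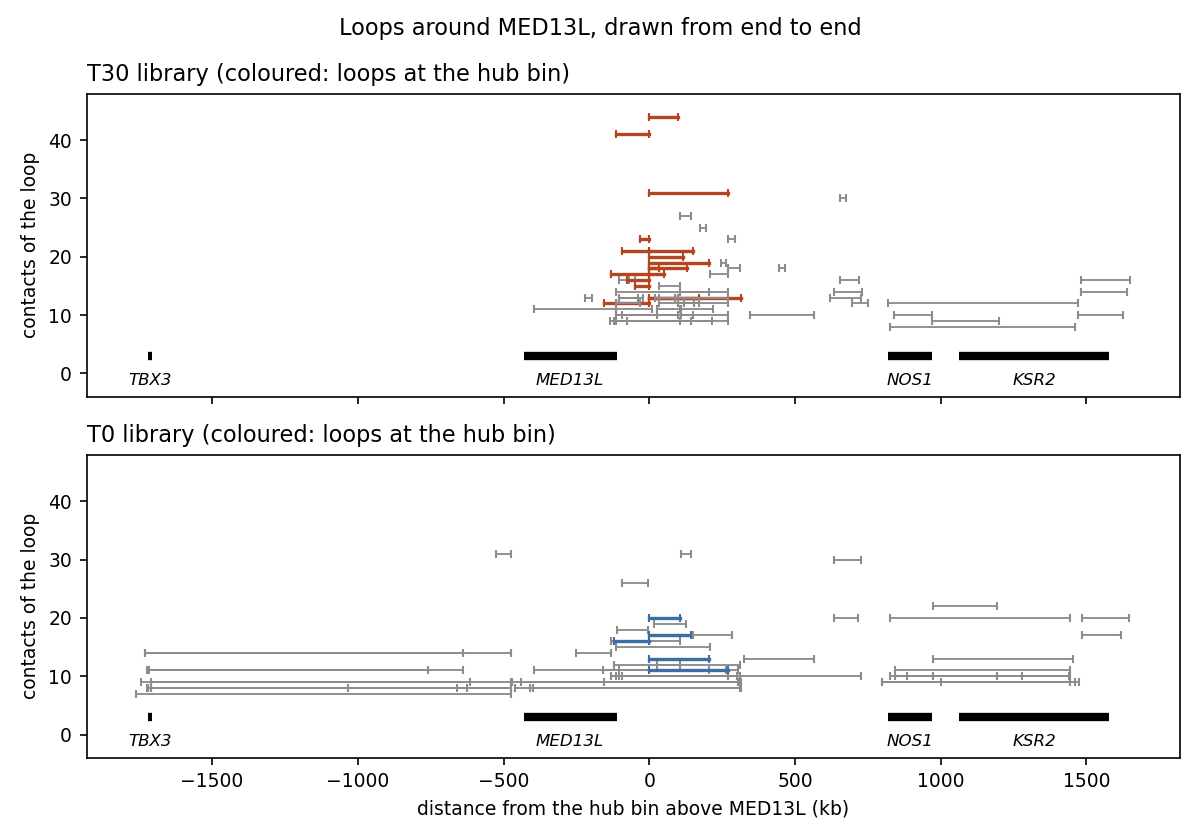
Each line is a loop drawn between its ends, by distance from the hub bin above MED13L in kb (x axis) and by its contacts (y axis), in T30 above and T0 below; coloured lines are loops of the hub bin and black bars are genes. The 17 coloured T30 loops reach 44 contacts, the 5 coloured T0 loops reach 20, and lines from TBX3 are in the T0 panel only.

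Below MED13L the T30 list lacked long loops that the T0 list had. From the bins at and near TBX3, a T-box transcription factor of mammary gland development, T30 had 0 loops towards MED13L and T0 had 12, which ran over 675 to 1285 kb and ended between 115355001 and 115920000. Each T0 loop was weak, with 7 to 14 contacts and a median of 8.5. TBX3 itself had 0 loops in T30 and 6 in T0. The bin at 115915001, which is 38576 bp below MED13L, joined 0 partners in T30 and 6 in T0. Over the whole chromosome loops of 500 kb or more were also fewer in T30, with 22 loops from 500 to 1000 kb and 0 longer, against 71 and 19 in T0.

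Counted by midpoint, the 3 Mb from 115000001 to 118000000 held 64 loops in T30 and 61 in T0, a ratio of 1.05 (interval 0.727 to 1.52), with 1001 and 851 contacts. Which library had more depended on the lists compared: at a q-value under 0.01 the loops numbered 41 and 26, and in lists of equal length over the genome 48 and 61. This equals 21.3 and 20.3 loops per Mb, against 3.35 and 3.51 in the chromosome outside the 2 stretches set apart here. These totals held opposite parts: by midpoint the first Mb held 0 loops in T30 and 13 in T0, the next 52 and 31, and the last 12 and 17. The 13 include the 12 T0 loops from the TBX3 side described above, whose first ends lie below the stretch. The T30 loop from 115995001 to 116275001 starts in the first Mb but has its midpoint in the next. Spans had quartiles of 58.8 and 170 kb in T30 and of 205 and 715 kb in T0. In 12 T30 loops (18.8%) and 11 T0 loops (18.0%) a match was found in the other list. The stretch is poor in genes, and 53.1% of its T30 loops and 39.3% of its T0 loops had neither end in a protein-coding gene, against 18.6% and 18.1% over the chromosome.

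All 10 protein-coding genes of this stretch had a loop in T30 and 6 had one in T0. MAP1LC3B2, an autophagy gene, had 3 loops in T30 and 0 in T0, TESC, a calcium-binding protein gene, 3 and 0 (4 and 2 with the gene widened by 10 kb), RNFT2 2 and 0, and HRK, a cell-death gene of the BCL2 family, 1 and 0. KSR2, a scaffold of the RAS to MAPK pathway, had 6 loops in T30 and 14 in T0, and NOS1, the neuronal nitric oxide synthase gene beside it, 4 and 5, or 4 and 10 when widened. Loops with an end between NOS1 and KSR2 numbered 7 in T30 and 14 in T0, and 0 of either set had a match by overlap of clusters. Some did lie within 10 kb of each other at both ends. One ran from 117360001 to 117590001 in T30, with 9 contacts, and from 117365001 to 117585001 in T0, with 22. Another ran from 117870001 to 118030001 in T30, with 14, and from 117875001 to 118035001 in T0, with 20.

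From 50 to 55 Mb, where the keratin and HOXC genes lie, T30 had fewer loops. The stretch held 91 loops in T30 and 122 in T0, a ratio of 0.746 (0.562 to 0.987), and 1244 against 2665 contacts. With loops of 20 kb or more in both lists the counts were 91 and 113, a ratio of 0.805 (0.604 to 1.07), so the interval then held 1. The stretch makes up 3.75% of the chromosome and held 15.9% of its loops in T30 and 19.6% in T0. Median span was 105 kb in T30 and 140 kb in T0. A match was found for 26 T30 loops (28.6%) and 31 T0 loops (25.4%). Of its 114 protein-coding genes 54 had a loop in T30 and 53 in T0, with 39 in both.

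The type II keratin genes lie from 52168996 to 52952906 and encode the basic subunits of epithelial intermediate filaments. Loops touching the cluster numbered 24 in each library, with 302 contacts in T30 and 493 in T0. Loops inside it numbered 17 in T30 and 8 in T0, and loops leaving it 7 and 16. Of the 27 keratin genes of the cluster, KRT18 of type I among them, 13 had a loop in T30 and 7 in T0, all 7 among the 13; with genes widened by 10 kb the counts were 17 and 10. KRT8 and KRT18, the keratins of simple and luminal epithelium, had 3 and 2 loops in T30 and 4 and 2 in T0. A link between them, from the bin at 52905001 to that at 52950001, was listed in both, with 17 contacts in T30 and 30 in T0. Another T30 loop between them, from 52895001 to 52950001, had 19 contacts. It was paired with a T0 loop from 52885001 to 52950001 with 25. Members moved both ways. KRT74, KRT72 and KRT73 had 1, 2 and 3 loops in T30 and 0 each in T0, the hair keratin gene KRT83 had 2 and 0, KRT4 and KRT78 1 and 0 each, and KRT7 2 and 1. The other hair keratin genes with a loop had fewer in T30, with 1 and 3 for KRT86, 2 and 3 for KRT85 and 1 and 2 for KRT84, as did KRT80, with 1 and 2. With genes widened by 10 kb KRT83 had 5 and 4, and KRT85 turned, with 4 and 3.

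The 9 HOXC genes, which encode homeobox factors of body-axis patterning, lie from 53938831 to 54056030. In each library 0 loops ran inside the cluster, and 16 T30 loops and 19 T0 loops left it, with 194 and 335 contacts. Of the 9 genes, 6 had a loop in T30 and 8 in T0, and all 9 in each library with genes widened by 10 kb. HOXC13 at 1 end had 3 loops in T30 and 5 in T0, whereas HOXC4 at the other end had 6 and 2, or 7 and 4 when widened; HOXC5 and HOXC6 share its bins and so its counts. The T0 network of the chromosome with most bins, 21 bins with 21 loops from 53755001 to 54215000, covered this cluster. By loops the T0 network at MED13L was larger, with 20 bins and 22 loops over 1190 kb.

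NR4A1, an orphan nuclear receptor, had 5 loops with 82 contacts in T30 and 9 loops with 301 contacts in T0; 2 of the T0 loops, with 51 and 68 contacts, span 10 kb, a span absent from the T30 list. DIP2B, which had as many loops as NR4A1 over both lists, had 6 loops in T30 and 8 in T0. ESPL1, which encodes separase, had 6 loops in T30 and 1 in T0, or 8 and 3 when widened, and ASIC1, an ion channel gene, 7 and 3. CBX5, which encodes the heterochromatin protein HP1 alpha, had 1 loop in T30 and 5 in T0. Its T0 loops with 49 and 58 contacts also span 10 kb. ATF7, a transcription factor of the ATF family, had 3 and 7.

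Loops by windows of 1 Mb were concentrated in the same places in both lists. Of 134 windows, 83 had a loop in T30 and 81 in T0, 67 had loops in both and 37 in neither. The 10 densest windows held 45.6% of T30 loops and 40.9% of T0 loops, and 7 windows were in both top 10 sets. Spearman's rho of the counts over the 134 windows was 0.694, as a description; windows share the library and differ in genes, with which the counts had a rho of 0.570 in T30 and 0.516 in T0. The stretch from 45 to 58 Mb held 35.5% and 36.0% of the loops. The 20 Mb at the start of the chromosome held 13 and 8 loops beside 219 protein-coding genes.

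A change of 10 loops or more was taken as large. Of 97 chromosome 12 windows with a loop, 1 had 10 or more loops more in T30, against a background of 5.83% of 1698 windows of the genome, and 3 (3.09%) had 10 or more fewer, against 1%. The window with more was 116000001 to 117000000, with 52 loops in T30 and 31 in T0. The windows with fewer were 54 to 55 Mb, with 11 and 25, 107000001 to 108000000, with 0 and 12, and 115000001 to 116000000, with 0 and 13. The last of these windows is the one that holds the T0 loops from the TBX3 side by their midpoints. Smaller gains in T30 were seen from 47 to 48 Mb, with 20 and 11 loops, from 131 to 132 Mb, with 10 and 2, and from 57 to 58 Mb, with 24 and 17. Dense windows in both lists included 52 to 53 Mb (31 and 38), 53 to 54 Mb (27 and 36), 56 to 57 Mb (24 and 32) and 121 to 122 Mb (25 and 19).

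**Figure D2:**
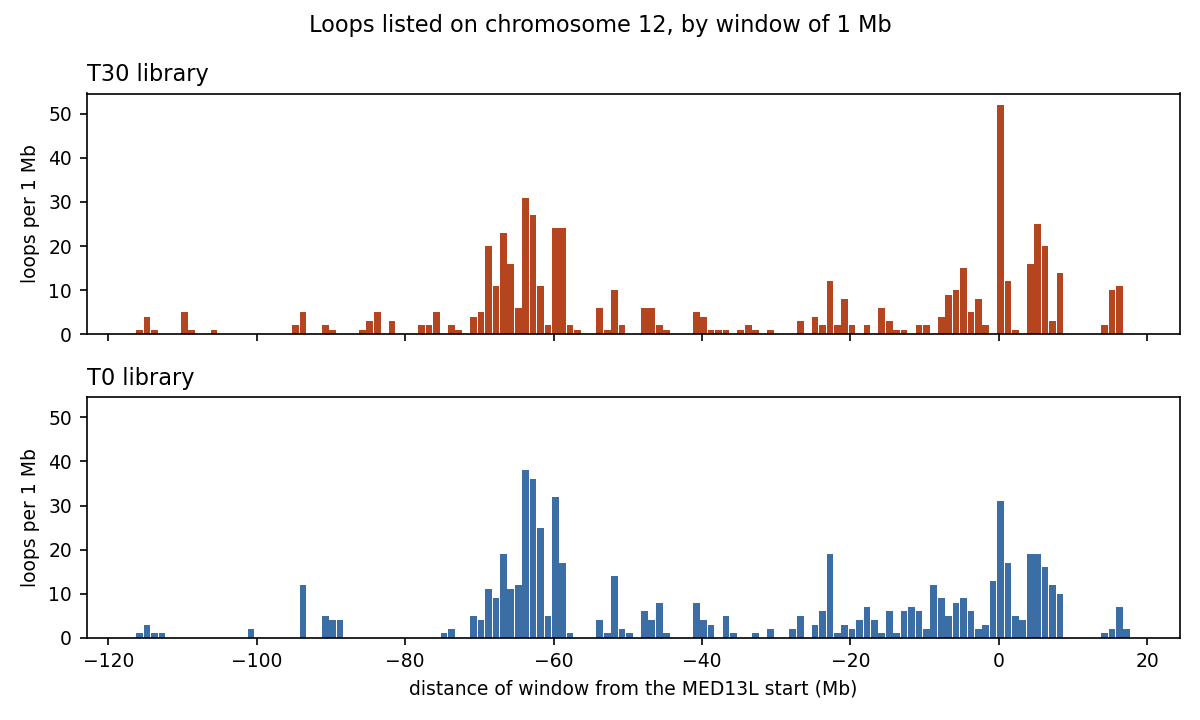
Bars are the number of listed loops in each window of 1 Mb of chromosome 12 (y axis), by the window's distance from the MED13L start in Mb (x axis), in T30 above and T0 below. The tallest T30 bar, at the MED13L start, is 52 loops against 31 in T0, and the tallest T0 bar is 38 loops against 31 in T30.

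Over the chromosome T30 listed 0.921 loops per T0 loop (0.821 to 1.03), while the other chromosomes together, with 9013 and 6452 loops, gave 1.40 (1.35 to 1.44). With loops of 20 kb or more the ratios were 1.02 (0.906 to 1.15) and 1.52 (1.47 to 1.57). The intervals of chromosome 12 and of the rest did not overlap in either form, but they do not cover the spread between chromosomes. Over all loops, single chromosomes ran from 0.821 for chromosome 13 to 2.54 for chromosome 9. Among 23 chromosomes the ratio of chromosome 12 was second lowest, above chromosome 13. Chromosome 12 ranked 7th by T30 loops and 3rd by T0 loops. Chromosome 11, of like length, had 573 and 457 loops. Contacts summed to 8105 in T30 and 12373 in T0.

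Listed loops were shorter in T30, on this chromosome as on the others. The median span was 90 kb in T30 (quartiles 45 and 180 kb, longest 785 kb) and 190 kb in T0 (75 and 365 kb, longest 1460 kb), against 80 kb and 190 kb elsewhere. Loops of 20 to 50 kb numbered 149 in T30 and 50 in T0, a ratio of 2.98, where the other chromosomes had 2871 and 310, a ratio of 9.26. Loops of 200 to 500 kb numbered 101 and 207. The class of 20 to 50 kb held 8.03% of the T0 loops of chromosome 12 and 4.8% of those elsewhere.

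**Figure D3:**
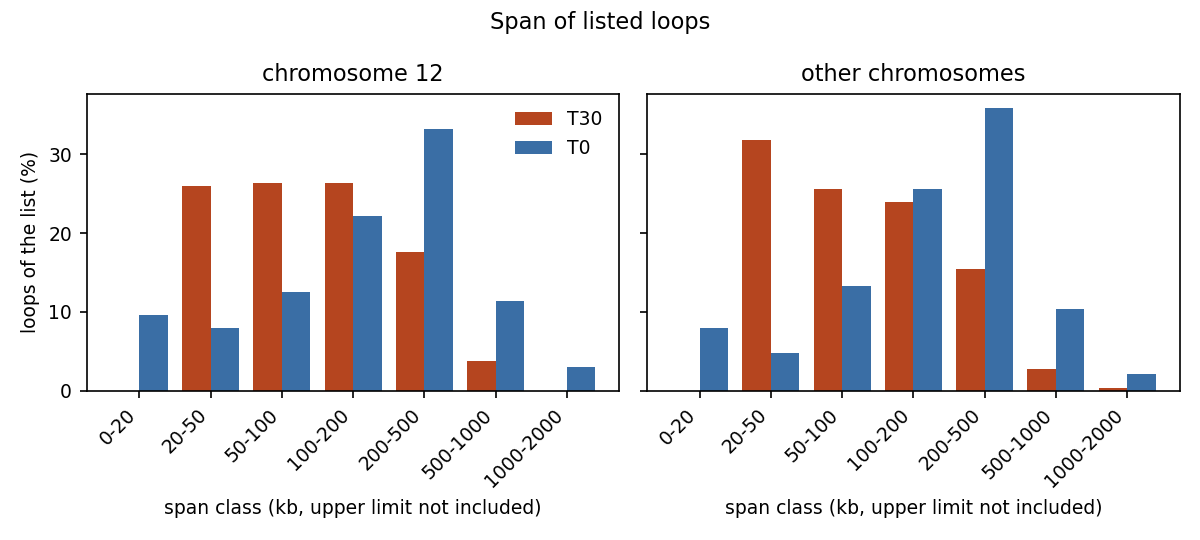
Bars give the percentage of each list's loops (y axis) in each class of span in kb (x axis), T30 left and T0 right in each pair, for chromosome 12 and for the other chromosomes. On chromosome 12 the class from 20 to 50 kb holds 26% of T30 loops and 8.03% of T0 loops.

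Contacts per loop had a median of 13 in T30 (highest 44) and 15 in T0 (highest 80), and 13 and 14 on the other chromosomes. Contacts were lower in T30 within a span class: at 20 to 50 kb the medians were 18 and 29.5, and at 200 to 500 kb 10 and 12. The 10 T0 loops with most contacts included 8 of 10 kb span, which T30 cannot match, led by one within GLTP, a glycolipid transfer gene, with 80 contacts, and one within SIRT4, a mitochondrial sirtuin gene, with 71. Among T0 loops of 20 kb or more the strongest lay near CALCOCO1, a coactivator and autophagy gene, with 27 contacts in T30 and 73 in T0 between identical bins. The loop from RAPGEF3 to SLC48A1 had 24 in T30 and 63 in T0, and that from NEMP1 to STAT6, a factor of cytokine signalling, 20 and 52. Of the 10 T30 loops with most contacts 7 lay outside the MED13L network, with 30 to 34 contacts. Another loop from RAPGEF3 to SLC48A1 and one at LRP1, with 31 contacts each in T30, had a match in T0. The other 5 had none, among them NACA to PRIM1 with 34 contacts, one at FAIM2 with 32, SPRYD3 to IGFBP6 with 31 and PTGES3 to NACA with 30.

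A loop counted as matched where its clusters of bins overlapped those of a loop in the other list, end for end. A match was found for 124 T30 loops (21.6%, 18.3 to 25.2%) and for 129 T0 loops (20.7%, 17.6 to 24.1%), against 16.1% and 22.3% on the other chromosomes. With identical bins the shares were 8.71% and 8.03%, and with both bins within 10 kb 37.8% and 34.0%. Short T30 loops matched least, at 12.8% for 20 to 50 kb and 28.7% for 200 to 500 kb. In T0 the share was highest between, at 42.3% for 50 to 100 kb, with 0 of 60 loops under 20 kb, 34.0% at 20 to 50 kb, 15.9% at 200 to 500 kb and 0 of 19 over 1 Mb. Of 846 T30 bins and 843 T0 bins, 259 were in both, 30.6% and 30.7%.

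Paired 1 to 1, 109 chromosome 12 loops were in both lists, and the median ratio of T30 to T0 contacts was 0.619, against 0.667 over 1385 pairs of the genome. Before scaling, T30 had more contacts in 9 pairs, fewer in 95 and equal numbers in 5. After division by the genome's median ratio, 6 pairs (5.50%) were 2-fold or more higher in T30, against 4.62% over the genome, and 2 (1.83%) were 2-fold or more lower, against 1.59%. Both shares lie near the background. Without scaling 3 pairs were 2-fold or more higher in T30 and 32 lower. The 5 highest scaled ratios all belonged to the MED13L network, led by the hub's loop to 116660001 with a scaled ratio of 4.23 (2.07 to 9.32), its loop to the MED13L start with 3.84 (2.11 to 7.34) and its loop to 116490001 with 3.30 (1.90 to 5.91). The sixth was a loop of LRP1, an endocytic receptor gene, with 31 and 23 contacts and a scaled ratio of 2.02 (1.14 to 3.63). The lowest was from the bin between PRIM1 and HSD17B6 to that near ACKR5, with 13 and 43 contacts and a scaled ratio of 0.453 (0.224 to 0.859), and next came a loop between CMAS and C2CD5 with 9 and 28, at 0.482 (0.20 to 1.05). These pairs were picked as the extremes of 109, and their intervals allow neither for that choice nor for error in the genome's median.

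**Figure D4:**
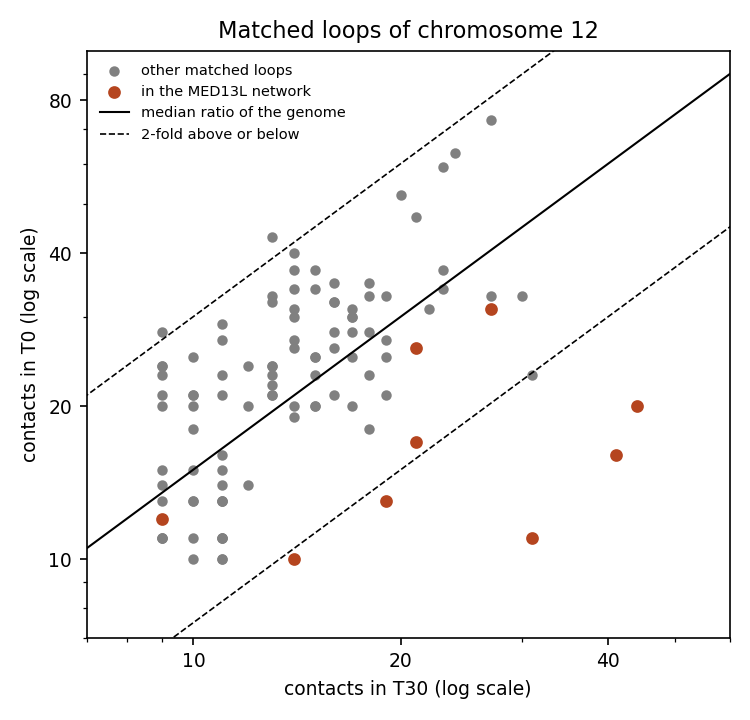
Each point is 1 of 109 matched chromosome 12 loops, by contacts in T30 (x axis, log scale) and in T0 (y axis, log scale); the full line is the genome's median ratio of 0.667 and the broken lines are 2-fold from it. Points of the MED13L network (coloured) lie furthest to the lower right, at 44, 41 and 31 contacts in T30 against 20, 16 and 11 in T0.

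Hubs of 5 or more partners on the chromosome numbered 12 of 846 bins in T30 and 21 of 843 in T0, and 1 bin was a hub in both. These were 1.42% and 2.49% of bins, against 2.27% and 2.44% on the other chromosomes. At a q-value under 0.01 the order was the other way, with 5 hubs in T30 and 2 in T0. After the bin above MED13L, the largest T30 hub was at the start of NACA, which encodes a chaperone of newly made proteins, at 56725001. It joined 10 partners with 179 contacts in T30 and 2 with 26 in T0. Its T30 partners included PTGES3, the p23 co-chaperone of steroid receptors, with 30 contacts, PRIM1, a DNA primase subunit, with 34, ATP5F1B and BAZ2A with 21, and LRP1, 450 kb away, with 10. Nearby at 56985001, near ACKR5, lay a bin with 2 partners in T30 and 7 in T0, a number that 4 T0 bins of the chromosome reached and none passed. From BAZ2A to LRP1 the lists held 23 and 20 loops, so the stretch had like numbers while the bin at which they met differed.

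A hub at 48020001, between COL2A1 and SENP1, joined 8 partners with 186 contacts in T30 and 0 in T0. Its partners were the vitamin D receptor gene VDR with 17 contacts, TMEM106C with 25, COL2A1, the cartilage collagen gene, with 25 at each of 2 bins, and SENP1, a protease of SUMO conjugates, with 20 to 29 at 3 bins. From VDR to SENP1 the lists held 11 and 2 loops, with 234 and 34 contacts, and 0 of either had a match. At the start of BTG1, an antiproliferative gene, 5 partners lay up to 780 kb away in T30 and 3 in T0, all of them weak, with 9 to 11 contacts.

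Hubs of T0 included the start of SRGAP1, with 4 partners in T30 and 7 in T0. All 7 T0 partners lay on 1 side, in the gene's upper end or beyond it, and all 4 T30 loops had a match. ABTB3 had a hub at 107400001 with 0 partners in T30 and 7 in T0, 6 of them towards CRY1, a clock gene. A bin at 54755001 had 0 and 6 partners, or 0 and 7 with bins within 10 kb pooled. The nearest gene to it is MUCL1, a breast mucin-like gene, at 70681 bp. Its T0 partners were bins in TESPA1 or near MUCL1, TESPA1 or NEUROD4. Near HECTD4 a bin had 0 and 6, but 3 and 7 when pooled, and 1 of its T0 loops spans 10 kb. The hubs near MORN3 lay 10 kb apart in the 2 lists, at 121670001 in T30 with 7 partners and at 121680001 in T0 with 6; pooled in the same way, the T30 hub bin had 8 partners in T30 and 6 in T0. In T30 4 of its loops, and in T0 all 6, led to KDM2B, a histone demethylase gene.

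Of 1024 protein-coding genes of chromosome 12, 316 (30.9%) had a loop end in T30 and 338 (33.0%) in T0, 210 in both, against 23.1% and 19.0% of genes elsewhere. Both ends lay in genes for 40.8% of T30 loops and 38.4% of T0 loops, and for 5.05% and 5.62% where only bins that hold an end of a gene counted. A gene's partners are the distinct bins joined to its bins, with both ends counted where a loop lies inside it. Of 444 genes with a loop in either list 174 had more partners in T30, 209 fewer and 61 equal numbers. A change of 3 or more partners was seen upward in 41 genes (9.23%), against a background of 12.5%, and downward in 37 (8.33%), against 5.22%.

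Genes with more partners in T30 were of mixed kinds. VPS37B, an ESCRT-I subunit gene, had 8 partners in T30 and 1 in T0, KDM2B 8 and 2, and LRP1 8 and 2. By loops KDM2B differed less, with 12 in T30 and 7 in T0, because 6 of its T0 loops met at the bin at 121680001. FMNL3 and LIMA1, both of the actin cytoskeleton, had 6 and 0, and 5 and 0. FAIM2, an inhibitor of Fas-driven cell death, had 7 and 1, RBMS2, an RNA-binding protein gene, 7 and 1, and NACA 10 and 2. MORN3 had 8 and 0, but its change was 4 with genes widened by 10 kb.

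Genes with fewer partners in T30 were as mixed. ABTB3 had 0 partners in T30 and 8 in T0, TBX3 0 and 5, TUBA1C, an alpha tubulin gene, 0 and 5, and ANAPC7, a subunit of the anaphase-promoting complex, 0 and 4. CBX5, PTPRR, a tyrosine phosphatase gene, ANKS1B and TMED2, of vesicle transport, had 1 and 6 each. C2CD5 had 1 and 5, and SRGAP1 4 and 8. The T0 partners of CBX5 and TUBA1C include bins joined over 10 kb, a span absent from the T30 list.

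**Figure D5:**
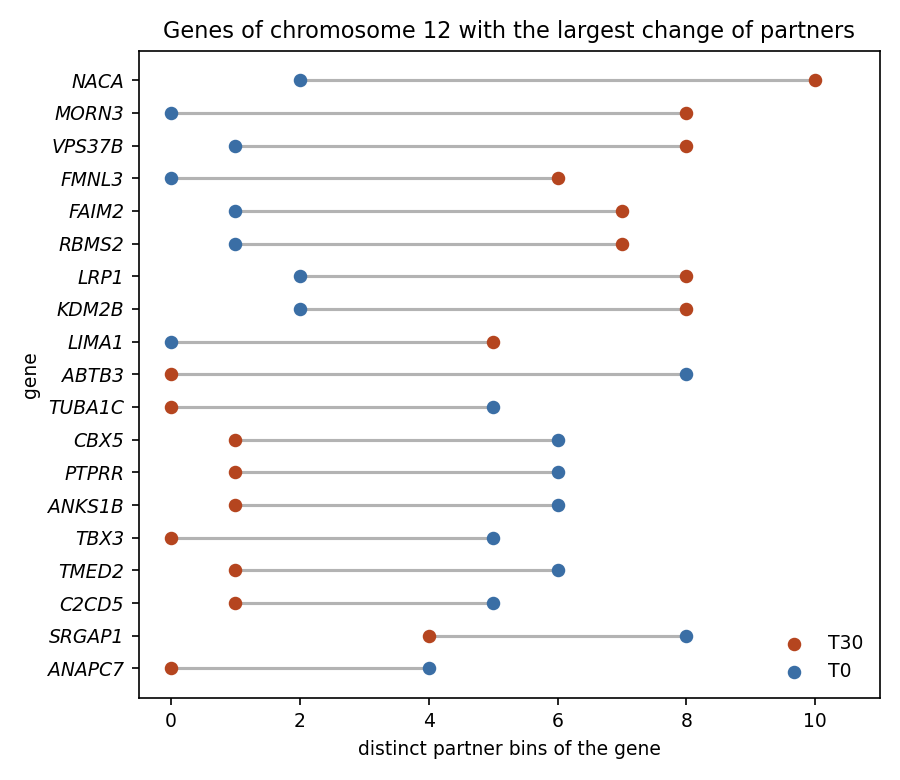
Points give distinct partner bins (x axis) of genes with the largest change in each direction (y axis), T30 and T0 joined by a line. NACA reaches 10 in T30 against 2 in T0, and ABTB3 has 0 in T30 against 8 in T0.

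Gene lists, chosen with earlier results of these data known, are given by counts alone, beside 30.9% and 33.0% of all genes with a loop. Of 16 nuclear receptor and coregulator genes, 10 had a loop in T30 and 12 in T0. VDR had 2 and 0 loops (5 and 2 when widened) and RARG, a retinoic acid receptor gene, 3 and 1, whereas KMT2D, a histone methyltransferase gene, had 1 and 3, BAZ2A 1 and 3 (3 and 3 when widened), and PRDM4 0 and 3. Of 21 growth factor and cytokine signalling genes 6 and 10 had a loop. ERBB3, the partner receptor of HER2, had 1 loop with 15 contacts in T30 and 2 with 65 in T0. The loop between 56045001 and 56085001 was in both, with 15 and 25. The other T0 loop, with 40 contacts, spans 15 kb, and no T30 loop spans under 20 kb. STAT6 had 1 and 3 loops, but 5 and 4 with the gene widened by 10 kb, SOCS2, a feedback inhibitor of cytokine signalling, 2 and 1, and KITLG 0 and 2.

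Of 19 adhesion, channel and transporter genes 10 had a loop in T30 and 2 in T0, and 10 and 5 with genes widened by 10 kb. CD9, a tetraspanin gene, had 4 loops with 56 contacts in T30 and 0 in T0. AQP5, a water channel gene, had 2 and 0 (6 and 2 when widened), and ITGB7, a leukocyte integrin gene, 2 and 0 (5 and 1 when widened). ITGA5, the fibronectin receptor subunit gene, had 1 and 3. Of 14 cell cycle genes 3 and 4 had a loop, with CDK2 at 0 and 2 and MDM2, the p53 ubiquitin ligase gene, at 2 and 0. The T0 loop of CDK2 with 54 contacts spans 10 kb, a span absent from the T30 list. Of 17 developmental and epithelial transcription factor genes 5 and 7 had a loop, with BHLHE41, a clock repressor, at 0 and 3. Of 21 genes of other tissues, a list of markers that T47D cells should not use, 3 and 4 had a loop, among them CELA1, a pancreatic-type elastase gene, with 2 and 5 loops and TAC3, a neuropeptide gene, with 4 and 5. Expression of these genes was not analysed here.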

How the data were processed

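Loop lists of 2 HiChIP libraries of T47D cells, 1 per condition, were used. The labels name FitHiC, a q-value limit of 0.05 and merging of near contacts; Bowtie, hg38 and GRCh38 stand, without a role, in the submitters' processing notes, and further settings were not given in the sources used here. The deposited contacts are whole-number counts per pair of bins of 5 kb, not normalized. Each loop's p-value and its q-value are the authors' own, from a bias-corrected model per the file headers. A deposited fraction per cluster of contacts entered no result. Other deposited columns hold bin and cluster positions. Of the 23 samples, only these 2 were analysed here.

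A loop was placed in the window of 1 Mb that holds its midpoint, and span is the distance between bin starts. Loops were matched where cluster ranges at both ends overlapped by at least 1 bp, then paired 1 to 1 by largest overlap. Ratios of contacts were divided by the median ratio over the genome. Genes came from a RefSeq table of GRCh38.p14, and a gene had a loop where a bin overlapped it; 765 of 1024 genes of the chromosome had a start in the promoter table. Intervals are exact Clopper-Pearson at 95%; read pairs need not be independent molecules. No test was run, because each condition is 1 library.

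The members, gene lists and rules were chosen with earlier results of these data known. Named are, per list, the 10 strongest loops by contacts and the 10 bins joined to most others, the 10 genes per direction whose partners changed most, list members with a loop, the 5 highest and lowest scaled ratios, the windows with most loops or largest change, and the genes with most loops in both stretches, of which only some are printed; some genes that the rule names are not reported here. Matching and counting were tested on simulated lists. The work used Python 3.11.15 with networkx 3.6.1, pandas 2.3.3, numpy 2.4.6, matplotlib 3.10.9 and scipy 1.17.1.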

Additional observations from a re-analysis of the deposited data

How the results depend on the processing

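Under 13 alternatives, 61 of 104 recomputed values stayed within 1.5 times of a count or within the interval of a share or median. Some of these could not move. No T30 loop spans under 20 kb, so that limit left the T30 counts as they were, and lists of equal length kept the T0 list whole. No direction between T30 and T0 of a loop count on the chromosome or from 50 to 55 Mb turned under a q-value limit of 0.01, where T30 and T0 held 338 and 354 loops in all, 56 and 75 from 50 to 55 Mb, and 41 and 26 in the 3 Mb around MED13L (48 and 61 in lists of equal length), with hub counts of 5 and 2, median contacts of 15 and 16, a T30 median span of 80 kb, and T0 shares of 24.6% matched and 34.5% with both ends in genes. T30 then had more hubs than T0, where the full lists had 12 and 21; the cause was not tested. Paired loops 2-fold higher and lower were then 3 and 1. The bin above MED13L had 17 partners in T30 under this limit, 10 contacts, 20 kb or equal lists, and 2 to 5 in T0.

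With at least 10 contacts, median spans were 75 kb in T30 and 165 kb in T0, T30 median contacts 14, T0 hubs 12, and 1 pair was 2-fold lower. With spans of 20 kb or more the T0 median span was 210 kb, and the chromosome's ratio of loops was 1.02. In lists of equal length the ratio of T30 to T0 loops was 0.708 and 25.6% of T30 loops matched. With identical bins 8.71% of T30 and 8.03% of T0 loops matched, with bins within 10 kb 37.8% and 34.0%; with identical bins 3 pairs were higher and 0 lower. With no scaling 3 were higher and 32 lower, and scaled by summed contacts 3 and 35. With gene ends only, 185 and 221 genes had a loop and 5.05% and 5.62% of loops had both ends in genes; with genes widened by 10 kb, 58% and 58.3%. Hubs of 3 or more partners numbered 58 and 98, and with bins within 10 kb pooled 65 and 93. No paired analysis was possible because each condition had 1 library. Unknown depth limits every count, and a loop not listed may still exist below the q-value limit.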

Other observations

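Outside the places described above, several stretches had loops in 1 list or in few. From 131 to 132 Mb, near the end of the long arm, T30 listed 10 loops and T0 listed 2, and a bin in MMP17, a membrane-bound matrix metalloproteinase gene, joined 6 partners up to 735 kb away in T30 and 0 in T0. From AQP5 to FAIM2, a group with the water channel genes AQP2 and AQP5, the lists held 8 and 1 loops, 119 and 15 contacts. TMED2 had 1 and 6 loops, in the window from 123000001 to 124000000 with 3 and 12.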
